A study of Mus musculus with 4 samples.

Results

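The cell cycle genes described here were 42 genes found by symbol among the 31053 genes of the deposited tables. They were kept in 2 lists, 14 genes that act around DNA synthesis (S phase) and 28 genes that act in G2 and mitosis. All 42 were detected, with between 309 unique molecular identifiers (UMIs) for Depdc1b and 29085 for Stmn1 over the cells kept. The samples were live CD45.2+ cells sorted from the lungs of C57BL/6 mice, with 1 single-cell 3′ library for each of 4 combinations of genotype and treatment. All mice carried the floxed alleles Ift20 f/f. WT mice carried these alone, whereas KO mice also carried CD4 cre, which acts in developing T cells, so that CD8 T cells share the deletion. Ift20 encodes a carrier protein of intraflagellar transport. Papain, a protease allergen, was given through the nose at 25 µg on 3 days in a row and again on day 14, with lungs taken on day 15, and the other mice received the buffer DPBS. The labels give neither the age of the mice nor how many were pooled in a library.

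A dividing cell first copies its DNA and then separates the copies. Genes of the first step include the helicase subunits Mcm2 to Mcm7, the sliding clamp Pcna, the nucleotide enzymes Rrm1, Rrm2 and Tyms, the helicase partner Gins2, the DNA methylation maintenance factor Uhrf1 and the E-type cyclins Ccne1 and Ccne2. Genes of the second step include Cdk1 and its cyclins Ccna2, Ccnb1 and Ccnb2, the kinases Plk1, Aurka, Aurkb and Bub1, kinesin motors such as Kif11 and Kif23, and the centromere proteins Cenpa, Cenpe and Cenpf. T cells divide after they meet antigen, and alveolar macrophages renew themselves in place with little need of blood monocytes.

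The lists also differ in their promoters. RefSeq windows of 300 bases on GRCm38.p6, from 250 bases before to 50 bases after a start site, were found for 22 of the 28 mitotic and 11 of the 14 S-phase members. The cell cycle homology region (CHR), a site read by the complex that turns mitotic genes on in G2, was searched as TTTGAA or TTCGAA on both strands. It was present for 18 of the 22 mitotic genes and 2 of the 11 S-phase genes, against 21.7% of all 27025 genes with a window. The E2F site, read by the factors that start S phase, was searched on both strands as TTTCCCGC, TTTGGCGC, TTTCGCGC or TTTGCCGC, whose matches can overlap. It was present for 5 of the 11 S-phase genes, Mcm3, Mcm5, Mcm6, Mcm7 and Uhrf1, and for 1 of the 22 mitotic genes, Cdk1, against 2.61% of all genes. The box CCAAT, common in promoters, was present for 20 of the mitotic and 9 of the S-phase genes, against 41.1% of all genes. The CHR matches of the mitotic genes lay at a median of -16.5 bases from the start site and the E2F matches of the S-phase genes at a median of -108. A match is a match of letters and not a measured site. The E2F words had been narrowed from a wider trial set, so their counts are no independent support for a difference between the lists.

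The windows of 3 members show this difference, with CHR and E2F matches in capitals, each read 5′ to 3′ on the strand of its gene. Ccnb2, a mitotic cyclin, has its window on chr9:70421505-70421804 (minus strand), with 2 CHR matches. Cdk1, the kinase it activates, has its window on chr10:69352863-69353162 (minus strand), with 2 CHR matches and the only E2F match of the mitotic list. Mcm6, a helicase subunit loaded before S phase, has its window on chr1:128359656-128359955 (minus strand), with 3 E2F matches, of which 2 overlap.
Ccnb2: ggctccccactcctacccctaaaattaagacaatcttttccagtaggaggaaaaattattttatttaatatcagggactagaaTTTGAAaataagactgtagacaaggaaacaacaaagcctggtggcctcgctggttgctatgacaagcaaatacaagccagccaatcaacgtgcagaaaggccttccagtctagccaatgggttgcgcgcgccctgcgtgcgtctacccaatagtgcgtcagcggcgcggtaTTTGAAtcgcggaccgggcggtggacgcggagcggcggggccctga
Cdk1: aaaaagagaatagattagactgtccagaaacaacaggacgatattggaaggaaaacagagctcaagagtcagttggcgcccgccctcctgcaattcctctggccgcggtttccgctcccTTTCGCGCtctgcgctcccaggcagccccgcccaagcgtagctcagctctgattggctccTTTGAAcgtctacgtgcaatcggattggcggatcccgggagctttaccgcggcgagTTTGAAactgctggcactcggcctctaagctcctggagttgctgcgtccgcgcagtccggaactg
Mcm6: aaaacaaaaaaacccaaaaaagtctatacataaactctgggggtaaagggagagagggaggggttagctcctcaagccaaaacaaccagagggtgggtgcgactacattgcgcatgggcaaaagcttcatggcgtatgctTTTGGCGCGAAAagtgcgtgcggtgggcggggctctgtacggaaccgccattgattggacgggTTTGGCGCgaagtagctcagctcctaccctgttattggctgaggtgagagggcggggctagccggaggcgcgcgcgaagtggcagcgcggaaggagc

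The filters left 7587, 5433, 7454 and 5435 cells in the libraries DPBS WT, then DPBS KO, then Papain WT and last Papain KO, with medians of 5852, 6543, 6207 and 6686 UMIs per cell, and values of the 4 libraries are given in this order throughout. Pairs of libraries shared 7 to 16 cell barcodes. Ptprc, the gene of CD45, had a UMI in 91.6%, 91.4%, 93.8% and 93.8% of cells. Cell classes were named from marker genes, hence the ending -like, after clustering without cell cycle genes. All 6 T cell markers and all 9 alveolar macrophage markers had UMIs in their own class in every library, at sums of 4725 to 5294 and 6492 to 6822 UMIs per 1000000 UMIs of the class (CPM), the scale of all levels. Brackets hold 95% exact intervals, Poisson for CPM and Clopper-Pearson for shares. They cover counting error only, and those of CPM are too narrow, since many UMIs of a list came from the same few cells. With 1 library per group there is no test between groups and no replicate check, and differences between mice or between library preparations cannot be told apart from genotype or treatment. In sums over a class, fewer dividing cells and less RNA per dividing cell cannot be told apart either. Ift20 itself was at 55.6, 18.3, 57.3 and 17.0 CPM in T-like cells and at 43.8, 34.4, 38.7 and 40.2 CPM in B-like cells. It was lower in T-like cells of both KO libraries, although 3′ reads may fall outside the deleted part of the gene.

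Each cell was thinned to 1000 UMIs, and cells with at least 3 genes of a list were counted. Across the libraries 560 of 25772 cells had 3 genes of either list (2.17%, 1.998 to 2.358). Before thinning these were deep cells, with a median of 24533.5 UMIs against 6186 in the others. Alveolar macrophage-like cells were 246 of them (43.9%) and T-like cells 189 (33.8%). B-like cells contributed 26, natural killer (NK)-like cells 16 and dendritic cell (DC)-like cells 15, all of the latter in the cluster led by Cadm1 and Xcr1. Unnamed clusters held 66, and monocyte-like and group 2 innate lymphoid (ILC2)-like cells 1 each. Neutrophils have stopped dividing before they leave the bone marrow, and none of the 1019 neutrophil-like cells had 3 genes. In a single library the 0 of 173, 0 of 142, 0 of 413 and 0 of 291 neutrophil-like cells allow shares of up to 2.11%, 2.56%, 0.889% and 1.26%. Without thinning, 4.02%, 4.73%, 3.0952% and 3.05% of neutrophil-like cells had 3 mitotic genes, at median depths of 3676, 3326, 3363 and 3712 UMIs, so that shares from whole cells carry a background.

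The make-up of this dividing pool differed between treatments. Alveolar macrophage-like cells were 108 of the 180 cells with 3 genes of either list in DPBS WT (60%) and 76 of 119 in DPBS KO (63.9%). They were 41 of 163 in Papain WT (25.2%) and 21 of 98 in Papain KO (21.4%). T-like cells were 51 and 28 of the pool after DPBS (28.33% and 23.53%) and 72 and 38 after papain (44.2% and 38.8%). These shares also follow the number of cells sampled, which was 1459, 1258, 1083 and 550 for alveolar macrophage-like and 2447, 1584, 2176 and 1726 for T-like cells.

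**Figure D1:**
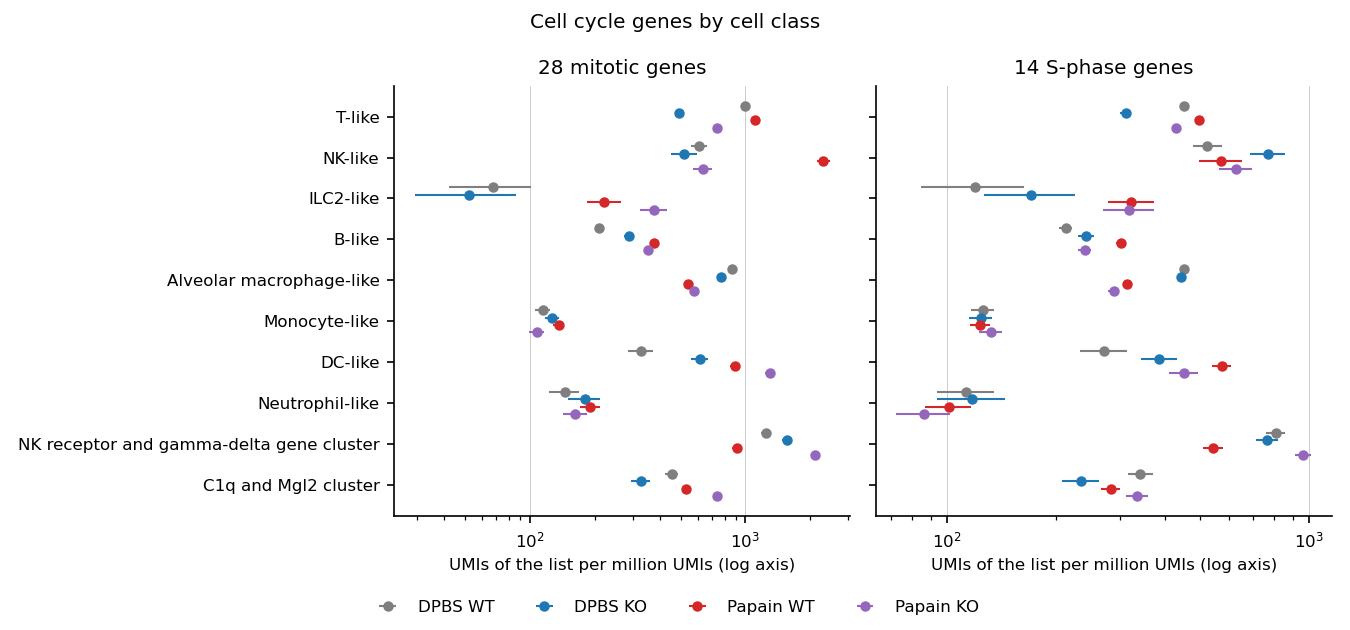
Summed level of the 28 mitotic genes (left) and the 14 S-phase genes (right) in CPM, on a log axis, for named classes and unnamed clusters. Points are libraries and bars are 95% Poisson intervals for counting error only. For mitotic genes neutrophil-like cells lie between 145 and 191 CPM, and every T-like and alveolar macrophage-like library lies above them.

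The lineages also stood apart by their summed levels. T-like cells held 992 (976 to 1007), 492 (479 to 506), 1110.3 (1094 to 1127) and 740.4 (726 to 755) CPM of mitotic genes. Alveolar macrophage-like cells held 865 (854 to 876), 770.3 (759 to 782), 539.6 (529 to 551) and 580.0 (566 to 594) CPM. B-like cells held 210.4, 287, 376 and 355 CPM and neutrophil-like cells 145, 179, 191 and 162. Every library of the first pair of classes was above every library of the second pair. S-phase genes held 449.6, 311, 496 and 428 CPM in T-like cells, 452, 443, 314 and 288 in alveolar macrophage-like cells and 113, 117, 101 and 86.1 in neutrophil-like cells. The neutrophil-like level came largely from 3 members. Kif23 was at 68.2, 84.2, 99.8 and 73.6 CPM there, Cenpa at 50.2, 51.6, 46.4 and 48.1 and Pcna at 63.5, 61.1, 55.0 and 39.9. Stmn1, which destabilises microtubules and had most UMIs of all members, was at 6.63, 8.15, 11.3 and 11.2 CPM, Mcm4 at 6.63, 6.79, 12.9 and 6.24 and Mcm7 at 12.3, 4.08, 8.09 and 6.24, far below their levels in T-like cells.

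**Figure D2:**
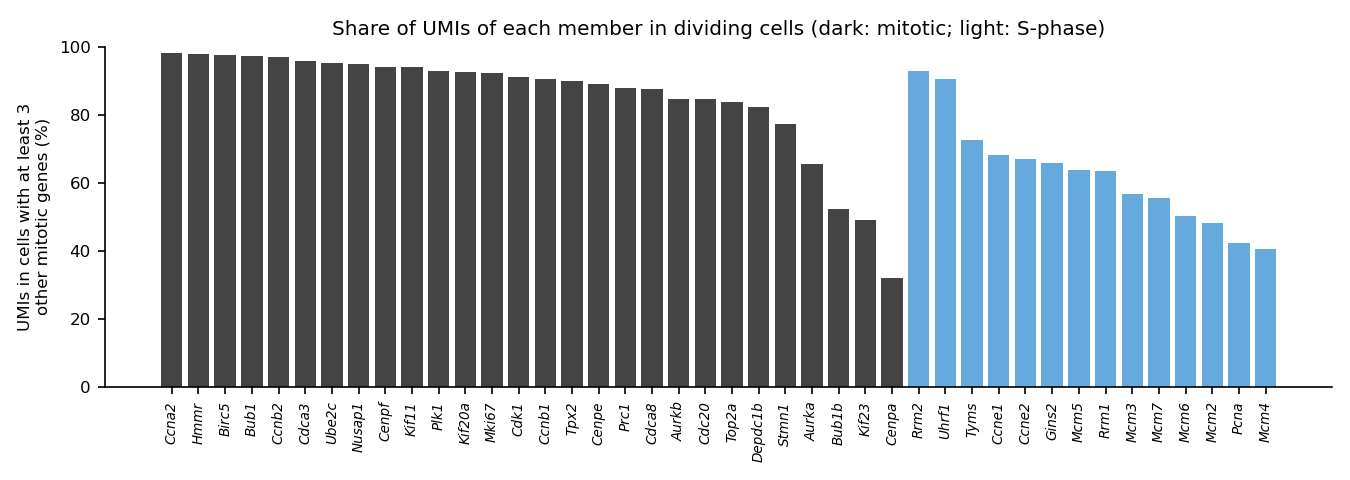
Share of the UMIs of each member, over all cells and libraries, that lay in cells with at least 3 other mitotic genes before thinning, in percent. Bars are genes, dark for mitotic and light for S-phase, and Ccna2 stands at 98.3% and Cenpa at 32.1%.

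Members differed in how far their UMIs lay in cells with other mitotic genes, counted before thinning. Deep cells reach such a minimum more easily, and some neutrophil-like cells reached it, so these cells are not all dividing. The share of the UMIs of a gene that lay in cells with at least 3 other mitotic genes was 98.3% for Ccna2, 97.9% for Hmmr, a spindle protein, 97.6% for Birc5 (survivin) and 97.2% for Ccnb2. It was 92.3% for Mki67, the gene of the Ki-67 antigen. Among mitotic genes it was lowest for Cenpa (32.1%), Kif23 (49.1%), Bub1b (52.3%) and Aurka (65.6%). Cenpa, the centromeric histone, lies on chr5:30666777-30674830 (GENCODE M21, GRCm38). B-like cells held 28.2% of its UMIs, at 137 CPM against 116 in T-like cells. Kif23, a kinesin of the midbody on chr9:61915905-61946774, was at 83.3 CPM in neutrophil-like cells, against 34.2 in alveolar macrophage-like and 24.2 in T-like cells. Bub1b, a spindle checkpoint protein on chr2:118598211-118641591, had 78.0% of its UMIs in alveolar macrophage-like cells, at 38.6 CPM against 7.40 in T-like cells. Bub1, another checkpoint gene, had 97.3% of its UMIs in cells with other mitotic genes and was at 6.09 and 4.35 CPM in the same classes. No other annotated gene overlaps Cenpa, Kif23 or Bub1b.

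By the same share S-phase genes were spread more widely. The share counts cells by mitotic genes alone, so UMIs in cells with S-phase genes only fall outside it and lower the values of this list. Rrm2 (92.9%) and Uhrf1 (90.7%) were as concentrated as most mitotic genes, followed by Tyms (72.6%). Mcm4 (40.5%), Pcna (42.4%) and Mcm2 (48.0%) had most of their UMIs in cells without 3 other mitotic genes. Pcna, on chr2:132249162-132253314, had most UMIs of the S-phase list (16060), of which alveolar macrophage-like cells held 49.1%. It was also the only S-phase gene above 50 CPM in monocyte-like (54.6) and neutrophil-like cells (53.0). A summed S-phase level thus holds many UMIs of cells with fewer than 3 other mitotic genes.

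The split by phase was read with all libraries pooled. The same minimum of 3 genes was asked of 28 mitotic and of 14 S-phase genes, so it is easier to reach for the mitotic list. The split within a class therefore does not measure how many of its cells were in each phase. Of the 246 alveolar macrophage-like cells with 3 genes of either list, 60 had S-phase genes only (24.4%, 19.2 to 30.3), 33 had both and 153 had mitotic genes only (62.2%, 55.8 to 68.3). Of 122 such CD4 T-like cells, 26 had S-phase genes only and 76 mitotic genes only (62.3%, 53.1 to 70.9). Of 38 such CD8 T-like cells, 13 had S-phase genes only and 12 mitotic genes only (31.6%, 17.5 to 48.7). The interval of the CD8 T-like cells lay below those of the alveolar macrophage-like and CD4 T-like cells. Mitotic genes only were found in 14 of 26 such B-like cells (53.8%, 33.4 to 73.4), 10 of 16 NK-like cells (62.5%, 35.4 to 84.8) and 12 of 15 DC-like cells (80.0%, 51.9 to 95.7). Of these the intervals of B-like and NK-like cells overlapped that of CD8 T-like cells, and no difference between classes was tested. A further 29 T-like cells could be placed in neither T subset.

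**Figure D3:**
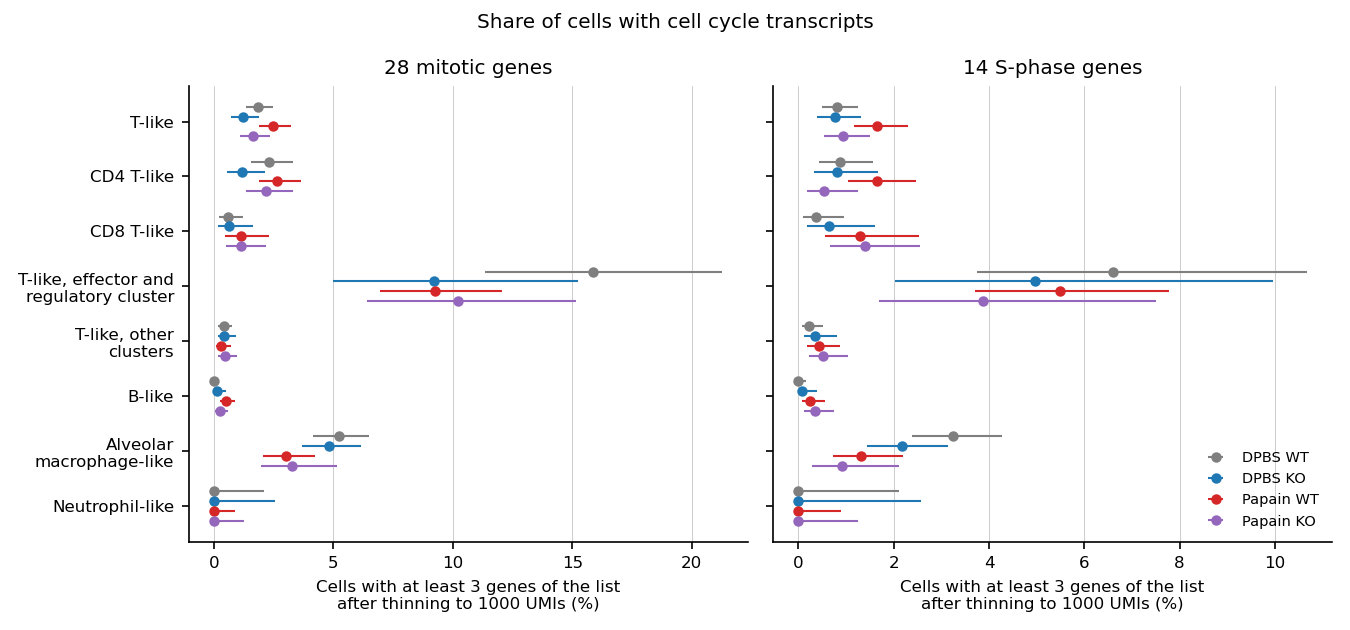
Share of cells with at least 3 mitotic genes (left) or S-phase genes (right) after thinning each cell to 1000 UMIs, in percent. Points are libraries and bars are 95% Clopper-Pearson intervals for counting error only. Within T-like cells the effector and regulatory cluster stands at 9.22% to 15.9% for mitotic genes and the other clusters below 0.5%.

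Among T-like cells, 45 of 2445, 19 of 1581, 54 of 2169 and 28 of 1725 thinned cells had 3 mitotic genes. The shares were 1.84% (1.35 to 2.46), 1.20% (0.725 to 1.87), 2.49% (1.88 to 3.24) and 1.62% (1.08 to 2.34). Both KO libraries were below the WT library of the same treatment and both papain libraries above the DPBS library of the same genotype, but the intervals of each pair overlapped. On the log2 scale KO against WT was -0.61 (-1.47 to 0.19) after DPBS and -0.62 (-1.33 to 0.067) after papain. Papain against DPBS was 0.44 (-0.16 to 1.04) in WT and 0.43 (-0.46 to 1.36) in KO. All 4 intervals hold 0. S-phase genes reached 3 in 20, 12, 36 and 16 cells, or 0.818%, 0.759%, 1.66% and 0.928%. Of the 4 S-phase contrasts, only papain against DPBS in WT had an interval without 0, at 1.02 (0.19 to 1.89).

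Most of these cells lay in 1 cluster of T-like cells, led by Foxp3, Ccr4, Tnfrsf4, Ctla4 and Il2ra, genes of regulatory and effector T cells. It is called the effector and regulatory cluster here. It held 119 of the 146 T-like cells with 3 mitotic genes (81.5%, 74.2 to 87.4). When T cells were clustered by themselves, 35, 7, 31 and 17 of the T-like cells with 3 mitotic genes lay in a subcluster led by 1500009L16Rik, Gzmk, Ccna2, Zdhhc2 and Ska1, of which Ccna2 and Ska1 are cell cycle genes. Another 5, 1, 10 and 3 lay in a subcluster led by Foxp3, Ncmap and Klrg1, and a second subcluster led by Foxp3 held none. Within the effector and regulatory cluster the shares with 3 mitotic genes were 15.9% (11.4 to 21.3), 9.22% (5.001 to 15.3), 9.26% (6.93 to 12.1) and 10.2% (6.42 to 15.2). In all other T-like clusters together they were 0.406%, 0.417%, 0.305% and 0.461%. Every library was thus at least 9% inside the cluster and under 0.5% outside it. Whether genes left in the clustering gathered dividing cells there was not tested, so the contrast may in part come from the clustering. The cluster made up 9.28% (8.16 to 10.5), 8.90% (7.54 to 10.4), 24.4% (22.7 to 26.3) and 12.0% (10.5 to 13.6) of T-like cells. After papain the intervals of WT and KO did not overlap for the size of the cluster, and the dividing share within it had a log2 ratio of 0.14 (-0.67 to 0.90). After DPBS those intervals overlapped, and the ratio of the dividing share within the cluster was -0.78 (-1.82 to 0.17), an interval that holds 0. The mitotic level inside the cluster was 4587, 2176, 2838 and 2915 CPM and outside it 303, 266, 316 and 306 CPM.

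The summed level of all T-like cells gave the same directions. KO against WT was -1.01 on the log2 scale after DPBS and -0.58 after papain, and papain against DPBS was 0.16 in WT and 0.59 in KO. For the S-phase list the values were -0.53, -0.21, 0.14 and 0.46. These levels rest on few cells, since the 10 cells with most mitotic UMIs held 31.0%, 43.2%, 30.4% and 41.5% of the list. T-like cells with 3 genes of either list had medians of 28855, 10760, 22845 and 25440.5 UMIs, lowest in DPBS KO, against 5778, 6438, 6260 and 7006 in other T-like cells. The DPBS difference was -0.19 when every cell had equal weight. It was 0.19, in the other direction, when cell cycle genes were kept in the clustering and dividing T cells left the class, and the papain difference was 0.014 then. The share of whole cells with 3 mitotic genes was 5.93%, 7.32%, 10.3% and 9.21%, whose DPBS order goes against the CPM, so no order is read from it. B cell and alveolar macrophage markers summed to 27.5 and 42.5 CPM in T-like cells with 3 mitotic genes and to 25.8 and 28.7 CPM in the others.

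By gene, 24 of 28 mitotic members and 4 of 14 S-phase members (Ccne1, Rrm2, Tyms and Gins2) fell short of WT by 2-fold or more in KO T-like cells after DPBS, as did 3.06% of the 11307 genes with 20 UMIs. Members share the same few cells, so their counts are not independent. The median log2 ratio was -1.60 over the mitotic list, -0.65 over the S-phase list and -0.069 over all genes tested. The mitotic members short of 2-fold were Stmn1, Cenpa, Kif23 and Depdc1b. Plk1, a kinase needed to enter and leave mitosis, was at 11.6, 2.38, 12.3 and 4.02 CPM, below WT in both KO libraries. After papain 3 mitotic members (Mki67, Plk1 and Cenpe) and no S-phase member were at least 2-fold lower in KO, where 3.91% of all genes were. The medians were -0.76 and -0.24, against -0.14 for all genes. All 28 mitotic ratios were below 0, but so was the median of all genes, so the sign alone does not set them apart.

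**Figure D4:**
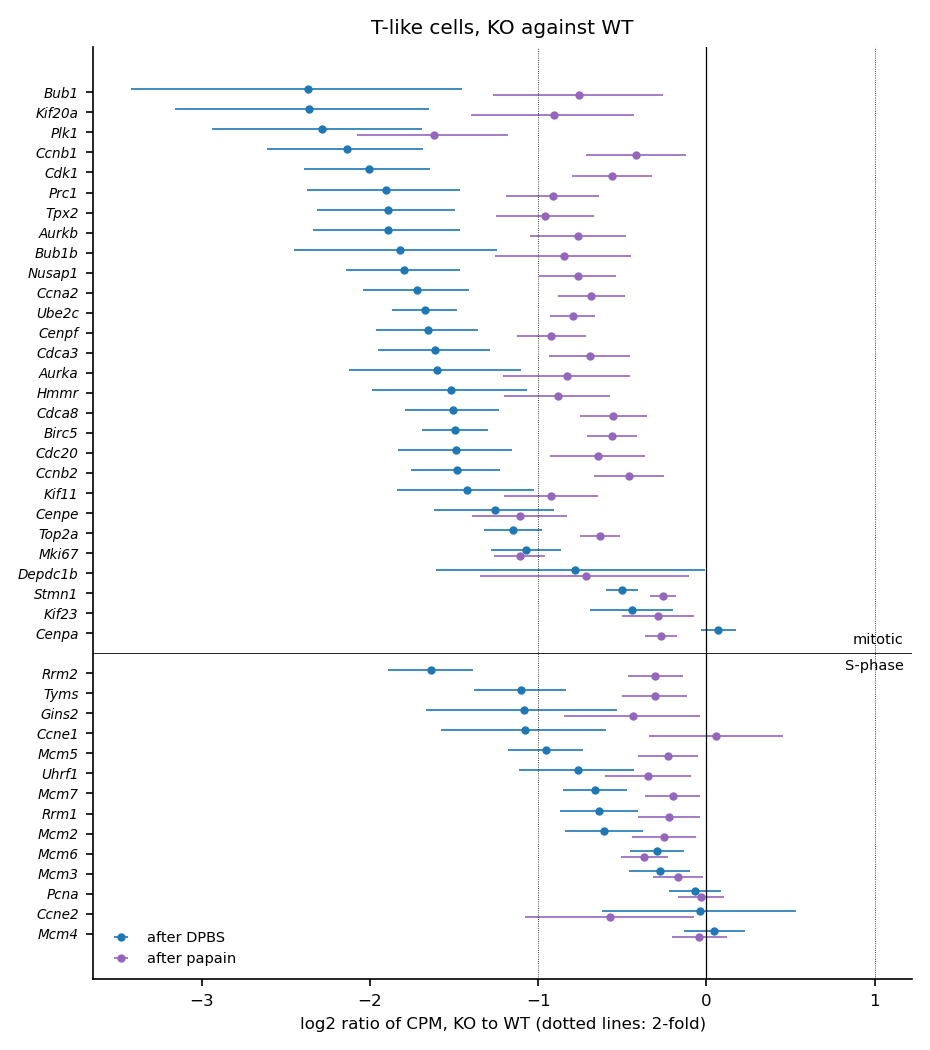
log2 ratio of CPM in T-like cells, KO to WT, for each member after DPBS (blue) and after papain (purple). Points are single library pairs and bars are 95% intervals for counting error only. Of the 28 mitotic genes 24 lie past the dotted 2-fold line after DPBS and 3 after papain.

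The 10 mitotic members with most UMIs show the pattern library by library. Stmn1 was at 173, 122, 194 and 162 CPM in T-like cells and Cenpa at 112, 118, 128 and 106. Top2a, the topoisomerase that untangles chromosomes, was at 75.6, 34.1, 102 and 65.6. Ube2c, which marks mitotic cyclins for destruction, was at 78.9, 24.8, 85.4 and 49.3. For these genes other than Cenpa, DPBS KO was the lowest library and Papain WT the highest. Birc5 was at 67.9, 24.1, 63.3 and 42.9 CPM and Mki67 at 48.0, 22.9, 78.4 and 36.3. Cdca8, a partner of Birc5 and Aurkb in the chromosomal passenger complex, was at 35.1, 12.3, 35.5 and 24.2. Ccnb2 was at 37.9, 13.5, 31.9 and 23.2. Both WT libraries were above both KO libraries for each of these 4 genes. Cenpf was at 32.0, 10.2, 39.6 and 20.9 CPM and Ccna2 at 31.0, 9.42, 37.0 and 23.03, with the same order of genotypes.

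The S-phase members with most UMIs varied less. Pcna was at 54.3, 51.8, 62.0 and 60.6 CPM in T-like cells, Mcm6 at 54.5, 44.5, 65.8 and 50.9 and Mcm3 at 43.3, 35.7, 51.9 and 46.1. Mcm7 was at 46.3, 29.3, 45.1 and 39.3 and Mcm4 at 38.3, 39.6, 42.3 and 41.1. Rrm2, which limits the supply of deoxynucleotides, was at 45.2, 14.5, 46.8 and 37.9, about as much lower in DPBS KO as the mitotic genes. By treatment, no member was 2-fold higher after papain in WT T-like cells, against 5.28% of all genes. In KO 10 mitotic members and Rrm2 were, against 2.39%.

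In CD4 T-like cells 29 of 1258, 10 of 860, 37 of 1393 and 20 of 924 cells had 3 mitotic genes, or 2.31% (1.55 to 3.29), 1.16% (0.559 to 2.13), 2.66% (1.88 to 3.64) and 2.16% (1.33 to 3.32). The list was at 1352, 625, 1291 and 1022 CPM. DPBS KO was the lowest library by both measures. KO against WT was -1.11 after DPBS, with a ratio of shares of -0.99 (-2.19 to 0.091), and -0.34 after papain, with a ratio of shares of -0.30 (-1.16 to 0.53). With cell cycle genes kept in the clustering the first of these was 0.094. At least 2-fold lower in KO after DPBS were 25 of 28 mitotic and 7 of 14 S-phase members, against 3.97% of all genes. S-phase genes reached 3 in 11, 7, 23 and 5 cells (0.874%, 0.814%, 1.65% and 0.541%). After papain the ratio of these shares was -1.61 (-3.36 to -0.18), but 0.0016 when cells were thinned to 2000 UMIs.

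In CD4 T-like cells Stmn1 was at 236, 145, 209.7 and 212 CPM, Cenpa at 147, 146, 145 and 149 and Top2a at 97.6, 38.5, 119 and 87.4. Ube2c was at 115, 41.8, 107 and 79.5, Birc5 at 97.7, 34.4, 72.3 and 62.8 and Mki67 at 64.7, 28.5, 97.8 and 50.6. Cenpa was level across the libraries, and the other 5 were lowest in DPBS KO. Ccnb2 was at 56.7, 19.1, 39.4 and 36.5 CPM, Cenpf at 46.7, 12.2, 49.2 and 31.5, Cdca8 at 46.7, 15.4, 40.4 and 34.2 and Ccna2 at 45.5, 14.3, 42.5 and 32.5, also lowest in DPBS KO. Of the S-phase genes Pcna was at 64.4, 56.8, 65.0 and 59.2 CPM, Mcm6 at 61.6, 44.6, 69.5 and 55.3 and Mcm3 at 51.1, 36.5, 55.3 and 51.1. Mcm4 was at 45.3, 46.8, 46.3 and 47.3, Rrm2 at 59.98, 15.7, 47.1 and 45.2 and Mcm7 at 57.3, 27.9, 44.8 and 40.4. Mcm4 was level, whereas Rrm2 and Mcm7 were more than 2-fold lower in DPBS KO than in DPBS WT.

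A few helper genes, chosen after the cluster had been seen, were read in the dividing cells of the effector and regulatory cluster. In WT, Tbx21, the regulator of T helper 1 cells, had a UMI in 22 of 36 dividing cells after DPBS and in 8 of 49 after papain, at 58.0 and 17.1 CPM. Ifng, the cytokine of those cells, had a UMI in 17 of 36 and 6 of 49, at 188 and 19.4 CPM. Both were higher after DPBS in WT. Foxp3, the regulator of regulatory T cells, was found in 9 of 36 and 24 of 49, at 21.5 and 104 CPM. Il1rl1, the receptor of interleukin 33, was found in 1 of 36 and 12 of 49, at 2.48 and 61.3 CPM. Gata3, a regulator of type 2 cells, was found in 34 of 36 and 48 of 49, at 186 and 278 CPM. These 3 were higher after papain in WT.

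Not all of these genes followed the same order in KO, where Tbx21 was found in 3 of 13 dividing cells after DPBS and 7 of 21 after papain, at 38.7 and 37.4 CPM. Ifng was found in 3 of 13 and 6 of 21, at 50.3 and 134 CPM, higher after papain. Foxp3 was found in 4 of 13 and 6 of 21, at 42.6 and 66.2 CPM. Il1rl1 was at 3.87 and 30.2 CPM and Gata3 at 65.8 and 121 CPM. In the other WT cells of the cluster, after DPBS and after papain, Tbx21 was at 17.2 and 12.6 CPM, Ifng at 93.8 and 56.7 and Foxp3 at 105 and 159. Il1rl1 was at 21.5 and 181 CPM there and Gata3 at 183 and 487. By CPM all 5 genes thus had the same order between treatments in dividing and in other WT cells. The intervals of Tbx21 in the other WT cells overlapped, at 11.0 to 25.6 and 9.29 to 16.7 CPM. By cells with a UMI, the other WT cells had Tbx21 in 13 of 191 and 36 of 480 (6.81% and 7.50%). They had Foxp3 in 59 and 145 (30.9% and 30.2%). By this count neither gene kept the order of the dividing cells, whereas Ifng, Il1rl1 and Gata3 did.

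CD8 T-like cells had few dividing cells, 6 of 1060, 4 of 630, 7 of 620 and 8 of 719, or 0.566%, 0.635%, 1.13% and 1.11% with overlapping intervals. Mitotic CPM was 292, 308, 448 and 462, so that papain against DPBS was 0.62 in WT and 0.58 in KO, and KO against WT was 0.077 and 0.044. The 10 top cells held 51.5%, 47.2%, 65.2% and 65.6% of these UMIs. At least 2-fold higher after papain were 8 of 27 tested mitotic members in WT, against 1.93% of all genes, and 15 of 27 in KO, against 2.56%. Stmn1 was at 50.9, 89.4, 111 and 112 CPM, Cenpa at 66.6, 83.5, 79.1 and 62.2 and Top2a at 26.0, 24.4, 34.1 and 43.3. Pcna was at 36.1, 44.2, 46.9 and 61.3 CPM, Mcm6 at 37.8, 41.7, 41.7 and 45.0 and Mcm7 at 27.2, 29.7, 35.4 and 38.2. Pcna and Mcm7 were higher in both papain libraries than in either DPBS library.

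In the alveolar macrophage-like class both papain libraries lay below both DPBS libraries. With 3 mitotic genes there were 76 of 1452, 60 of 1246, 32 of 1064 and 18 of 548 cells, or 5.23% (4.15 to 6.51), 4.82% (3.69 to 6.16), 3.01% (2.07 to 4.22) and 3.28% (1.96 to 5.14). Papain against DPBS was -0.80 (-1.44 to -0.19) in WT and -0.55 (-1.40 to 0.23) in KO on the log2 scale, and KO against WT was -0.12 (-0.63 to 0.39) after DPBS and 0.13 (-0.79 to 1.004) after papain. S-phase genes reached 3 in 47, 27, 14 and 5 cells, or 3.24%, 2.17%, 1.32% and 0.912%, with papain against DPBS at -1.30 (-2.27 to -0.41) in WT and -1.25 (-2.98 to 0.15) in KO. Of these intervals only those of papain against DPBS in WT leave out 0. By CPM, papain against DPBS was -0.68 in WT and -0.41 in KO for mitotic genes, with ranges of -0.96 to -0.42 and -1.03 to -0.19 over the alternatives, and -0.52 and -0.62 for S-phase genes. The shares of whole cells with 3 mitotic genes were 33.5%, 34.8%, 23.6% and 35.8%, so that the KO ratio was 0.041 there, against the CPM. Monocyte markers summed to 573, 551, 1218 and 948 CPM in the class, higher in both papain libraries, and their part in the result was not tested.

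All 28 mitotic and all 14 S-phase members were lower after papain than after DPBS in WT alveolar macrophage-like cells, and 27 and 14 were in KO. At least 2-fold lower were 4 mitotic members (Cdc20, Cenpf, Kif20a and Prc1) and 1 S-phase member (Rrm2) in WT, where 1.71% of 11971 genes were. In KO no mitotic and 3 S-phase members (Ccne2, Rrm2 and Uhrf1) were, against 1.35% of 11659 genes. The medians were -0.78 for mitotic and -0.56 for S-phase genes in WT, against -0.066 for all genes, and -0.46 and -0.68 in KO, against 0.0001. By these medians many other genes were also below 0, so the sign alone does not set the members apart. The mitotic member that was not lower in KO was Cdc20, an activator of the anaphase-promoting complex, at 17.0, 11.4, 7.97 and 11.6 CPM.

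**Figure D5:**
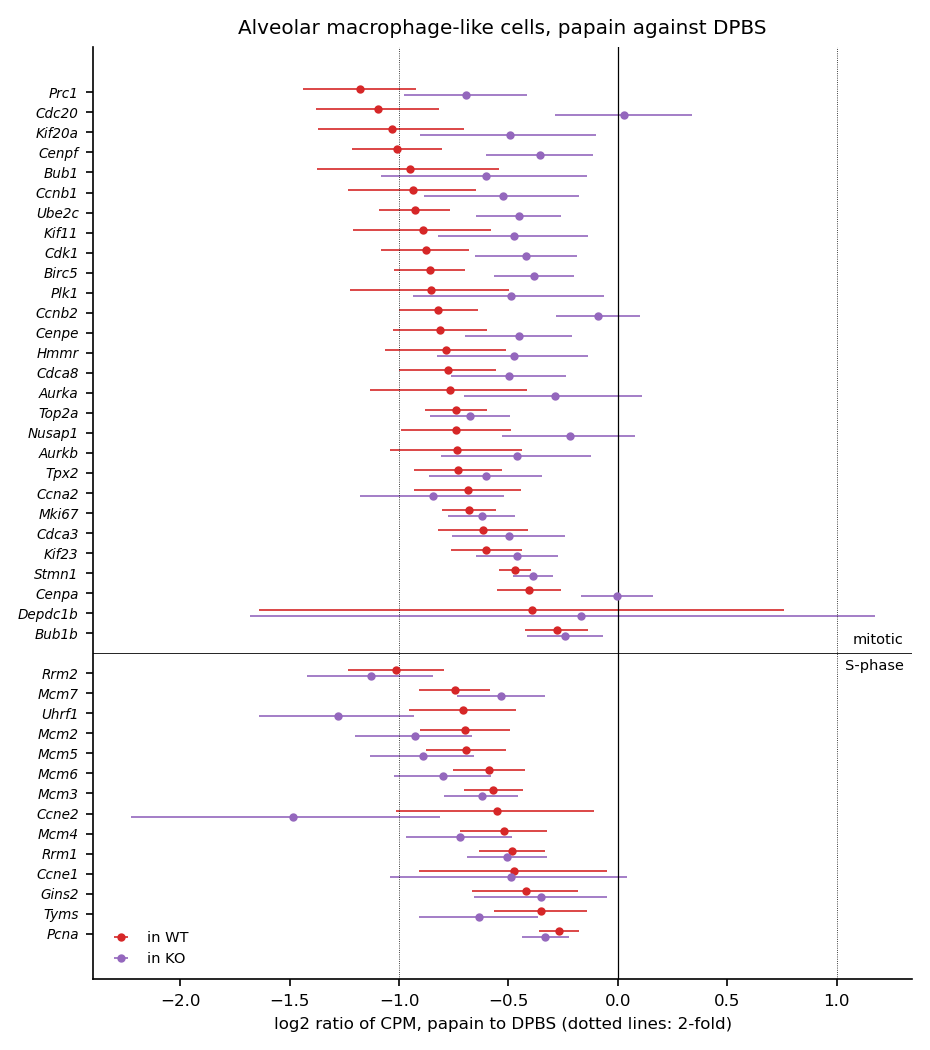
log2 ratio of CPM in alveolar macrophage-like cells, papain to DPBS, for each member in WT (red) and in KO (purple). Points are single library pairs and bars are 95% intervals for counting error only. Every point lies below 0 except Cdc20 in KO.

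In alveolar macrophage-like cells Stmn1 was at 176, 157, 128 and 120.4 CPM, Mki67 at 68.7, 63.0, 42.9 and 40.9 and Top2a at 53.1, 45.6, 31.8 and 28.6. Birc5 was at 44.7, 39.0, 24.7 and 29.9, Ube2c at 45.0, 36.2, 23.7 and 26.5 and Cdk1 at 28.8, 25.3, 15.7 and 18.9. Both papain libraries were below both DPBS libraries for each of these genes. Ccnb2 was at 34.7, 31.4, 19.7 and 29.5 CPM and Kif23 at 37.9, 39.1, 25.0 and 28.5. Cenpa was at 42.7, 40.4, 32.2 and 40.3 and Bub1b at 41.2, 40.7, 33.9 and 34.5, genes with lower shares in cells with other mitotic genes. All 4 were also lower in both papain libraries than in both DPBS libraries, with Cenpa in Papain KO next to Cenpa in DPBS KO. Of the S-phase genes Pcna was at 103, 108, 85.5 and 86.1 CPM, Mcm3 at 55.3, 52.1, 37.3 and 33.8 and Rrm1, the large subunit of ribonucleotide reductase, at 43.0, 41.999, 30.7 and 29.6. Mcm7 was at 41.4, 35.3, 24.7 and 24.4, Mcm6 at 36.5, 33.5, 24.3 and 19.3 and Mcm5 at 31.6, 30.9, 19.6 and 16.6. All 6 were lower in both papain libraries than in both DPBS libraries.

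The class held 2 clusters. In that led by Gm41307, Trim47 and Ccdc80, 6.86% (5.06 to 9.04), 8.29% (5.81 to 11.4), 3.02% (1.66 to 5.02) and 2.02% (0.658 to 4.64) of cells had 3 mitotic genes, at 1136, 1115, 538 and 368 CPM. In that led by Nrg4, Mical2 and Flvcr2, 3.84% (2.61 to 5.44), 3.11% (2.04 to 4.52), 3.00% (1.78 to 4.69) and 4.33% (2.33 to 7.30) did, at 648, 607, 541 and 746 CPM. Papain against DPBS was -1.18 (-2.16 to -0.29) and -2.04 (-3.75 to -0.68) in WT and KO for the former and -0.36 (-1.29 to 0.53) and 0.48 (-0.61 to 1.49) for the latter. For S-phase genes the latter had 4.10%, 2.39%, 1.33% and 1.33%, also lower in both papain libraries. The difference between the clusters was not tested.

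In B-like cells 0 of 2205, 2 of 1447, 10 of 2075 and 4 of 1736 cells had 3 mitotic genes, where 0 cells in DPBS WT has an upper limit of 0.167% and the other shares were 0.138% (0.0167 to 0.498), 0.482% (0.231 to 0.884) and 0.230% (0.0628 to 0.589). Of these cells 11 came from the cluster led by Sox5, Nid1 and Dnase1l3, where 0 of 111, 1 of 76, 7 of 265 and 3 of 156 cells had them. At least 2-fold higher after papain were 19 of 27 tested mitotic members in WT, against 3.64% of all genes, and 11 of 25 in KO, against 1.92%. A single cell of Papain WT held 500 mitotic UMIs and one of Papain KO held 483. Cenpa was the leading member at 117, 164, 129 and 149 CPM, followed by Stmn1 at 30.6, 44.2, 75.7 and 55.6 and Top2a at 16.7, 14.7, 37.0 and 28.6. Stmn1 and Top2a were highest in both papain libraries, and Cenpa was not. Pcna was at 35.8, 35.4, 37.6 and 41.0 CPM, Mcm6 at 32.4, 33.2, 42.8 and 32.9 and Mcm3 at 23.5, 34.6, 36.2 and 26.0.

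NK-like cells were few, and 3 of 158, 1 of 63, 5 of 59 and 3 of 91 had 3 mitotic genes. The shares were 1.90% (0.393 to 5.45), 1.59% (0.0402 to 8.53), 8.47% (2.81 to 18.7) and 3.30% (0.685 to 9.33), with overlapping intervals. Stmn1 was at 208, 245, 391 and 257 CPM, Top2a at 43.9, 39.2, 259 and 75.7 and Cenpa at 64.2, 93.1, 141 and 77.4. All 3 were highest in Papain WT, where 10 cells held 95.4% of the mitotic UMIs. Mcm6 was at 99.0, 145, 127 and 126 CPM, Pcna at 66.4, 73.5, 68.9 and 89.2 and Mcm5 at 61.9, 95.6, 38.6 and 57.2. An unnamed cluster led by gamma-delta T cell receptor and NK receptor genes (Tcrg-C2, Cd160, Klrc1) had 3 mitotic genes in 3 of 159, 5 of 124, 5 of 204 and 11 of 149 cells. Its shares were 1.89% (0.391 to 5.41), 4.03% (1.32 to 9.16), 2.45% (0.801 to 5.63) and 7.38% (3.74 to 12.8), highest in Papain KO but with overlapping intervals.

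ILC2-like cells had no cell with 3 mitotic genes, 0 of 70, 0 of 51, 0 of 79 and 0 of 81, which allows up to 5.13%, 6.98%, 4.56% and 4.45%. Stmn1 had 1, 4, 51 and 51 UMIs from 1, 3, 5 and 2 cells, Top2a 0, 3, 21 and 32 UMIs and Kif23 10, 1, 6 and 26. Mcm3 had 4, 9, 31 and 18 UMIs, Pcna 7, 10, 15 and 24 and Rrm1 6, 6, 12 and 20. In Papain KO a single cell held 158 mitotic UMIs before thinning, so these levels rest on a handful of cells. There Mki67 had 10 UMIs and Top2a 32, each from 1 cell. The counts of 0 after thinning thus do not show that no ILC2-like cell was dividing.

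Among the other myeloid cells, DC-like cells of the Xcr1 cluster had 3 mitotic genes in 1 of 24, 2 of 33, 7 of 56 and 4 of 37 cells, or 4.17% (0.105 to 21.1), 6.06% (0.743 to 20.2), 12.5% (5.18 to 24.1) and 10.8% (3.03 to 25.4). In the DC-like class Stmn1 was at 77.03, 179, 241 and 266 CPM, Mki67 at 61.9, 60.9, 87.8 and 152 and Top2a at 31.7, 51.9, 80.1 and 105. All 3 were higher in both papain libraries than in both DPBS libraries. The class held 41, 46, 104 and 47 cells, of which 17, 13, 48 and 10 lay outside the Xcr1 cluster. The part of this mix in the levels was not tested. Pcna was at 54.4, 77.8, 88.4 and 64.7 CPM, Mcm3 at 22.7, 46.7, 62.6 and 49.8 and Mcm5 at 36.2, 31.1, 61.5 and 52.7. Monocyte-like cells had 3 mitotic genes in 1 of 598, 0 of 541, 0 of 812 and 0 of 521 cells. Their Cenpa was at 53.6, 68.0, 64.7 and 47.2 CPM, Kif23 at 23.2, 21.3, 19.9 and 21.4 and Stmn1 at 7.00, 6.68, 11.4 and 10.5. Pcna was at 55.9, 55.4, 49.9 and 59.3, Mcm5 at 12.8, 10.1, 11.1 and 10.3 and Mcm3 at 9.05, 8.84, 12.96 and 9.44. The unnamed cluster led by Mgl2, Cd209a and C1q genes had 3 mitotic genes in 3 of 109, 1 of 79, 10 of 244 and 4 of 124 cells. There Stmn1 was at 108, 78.1, 115 and 144 CPM, Cenpa at 76.6, 53.9, 71.1 and 95.4 and Mki67 at 37.7, 56.4, 50.003 and 79.6. Pcna was at 56.9, 53.9, 57.1 and 63.5, Mcm3 at 44.5, 38.6, 33.9 and 42.3 and Mcm6 at 38.8, 17.7, 27.4 and 33.2.

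Other genes of the pathway were counted over wider lists. In T-like cells after DPBS, KO against WT was below 0 for 85 of 92 wider mitotic genes tested, with 50 past 2-fold. It was below 0 for 52 of 57 wider S-phase genes, with 7 past 2-fold. Over all genes 3.06% were past 2-fold in this direction, a share that does not cover smaller ratios below 0. The medians were -1.10 and -0.46, against -0.069 for all genes, and after papain -0.48 and -0.16, against -0.14. The medians of all genes were below 0 too, so the sign alone does not set these lists apart. The chromatin genes Hmgb2 and H2afz and the tubulin gene Tubb5 led the wider mitotic list, at 865, 685, 939.7 and 830.4 CPM, at 611, 599, 895 and 628 and at 666, 504, 557 and 540.3. Atad2, Slbp and Dut led the wider S-phase list, at 98.7, 93.5, 115 and 106 CPM, at 99.5, 88.4, 106 and 100.1 and at 82.3, 56.3, 95.02 and 80.7. None of these 6 genes differed by 2-fold between libraries.

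Genes that switch the cycle on or hold it were read in T-like cells in the same way. Of 12 tested transcription factors, E2f8, Foxm1 and Mybl2 were past 2-fold, all lower in KO, after DPBS, against 3.06% of all genes. The factors with most UMIs were not, with Myc at 44.1, 46.2, 45.0 and 50.4 CPM, Tfdp1 at 22.5, 18.9, 29.2 and 22.1 and Lin54 at 16.6, 18.3, 29.6 and 21.2. Cyclins and kinases of G1 had a median of -0.26 with none past 2-fold, and Ccnd2 was at 185, 178, 224 and 205 CPM, Ccnd3 at 181, 148, 165 and 174 and Cdk4 at 66.7, 57.3, 60.8 and 61.0. Genes that restrain division had a median of 0.077 with none past 2-fold. Btg1 was at 1428, 1910.3, 1721 and 1911 CPM and Klf2, a factor of resting T cells, at 1249, 1631, 1329.6 and 1888, both higher in KO than in WT under each treatment. Btg2 was at 456, 439, 426 and 468.

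In CD4 T-like cells Atad2 was at 100.2, 90.7, 113 and 105 CPM, Slbp at 101, 90.1, 110.1 and 103 and Dut at 99.8, 55.2, 102 and 90.7. Hmgb2 was at 1151, 774, 1048 and 1022, H2afz at 701, 647, 1031 and 744 and Tubb5 at 676, 436, 541 and 542. All 6 were lowest in DPBS KO. Myc was at 32.9, 33.3, 33.4 and 37.4 CPM, Tfdp1 at 27.6, 21.3, 30.4 and 23.5 and Lin54 at 17.3, 19.6, 31.8 and 21.99. Ccnd2 was at 179, 178, 216 and 200.3, Ccnd3 at 188, 159, 168 and 194 and Cdk4 at 66.7, 47.4, 56.8 and 60.4. Btg1 was at 1568, 2184, 1864 and 2150.4, Klf2 at 1292, 1769, 1262 and 1954 and Btg2 at 495, 503, 454 and 542. All 3 of the last were higher in KO than in WT under each treatment.

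In alveolar macrophage-like cells, papain against DPBS had a median of -0.58 in WT and -0.27 in KO over the wider mitotic list and of -0.41 and -0.37 over the wider S-phase list. H2afz was at 877, 811, 742 and 809 CPM, Tuba1b at 679, 666, 505 and 518 and Tubb5 at 622, 556, 441 and 469. Slbp was at 63.6, 64.3, 64.3 and 63.6, Atad2 at 60.8, 56.8, 52.8 and 59.5 and Usp1 at 55.4, 50.5, 45.2 and 44.7. H2afz and the tubulin genes were lower after papain in both genotypes except H2afz in KO, which was level. E2f1, a factor that opens S phase, was the leading transcription factor at 53.2, 55.6, 38.1 and 40.2 CPM, ahead of Myc at 36.1, 33.7, 28.5 and 36.6 and Tfdp1 at 26.5, 26.4, 22.1 and 22.4. Ccnd2 was at 495, 615, 363 and 461, Cdk6 at 132, 142, 107 and 151 and Ccnd3 at 82.2, 83.3, 66.2 and 91.5. Cdkn1a, an inhibitor of cyclin-dependent kinases, was at 701, 757, 888 and 716, Btg1 at 529.8, 536, 749 and 698 and Btg2 at 443, 347, 379.5 and 427. E2f1 and Ccnd2 were lower and Btg1 higher after papain in both genotypes, each by less than 2-fold.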

How the data were processed

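Cells of 4 libraries, 1 per group, were analysed. The authors deposited tables of raw counts of unique molecular identifiers per gene and cell, made with Cell Ranger on mm10 according to the submitters' processing notes, with software 3.1.0 in the matrix headers. The deposited counts carry no normalization and no cell type labels.

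Barcodes with more than 200 genes and under 15% mitochondrial UMIs were kept, and those with the highest doublet scores were removed (scanpy 1.11.5), at a rate of 0.8% per 1000 cells. How the authors treated doublets in the deposited tables is not given in the sources used here. The libraries were integrated by canonical correlation analysis and clustered (Seurat 5.3.0, R 4.3.3, 2000 variable genes, 30 dimensions, resolution 0.8) without cell cycle genes. Clusters were named from marker lists by a rule set after the clusters had been seen. The members, gene lists and markers were chosen with earlier results of these data known, and the E2F words were narrowed from a wider trial set.

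Counts were summed per class and library and scaled to CPM. Shares were counted after thinning each cell to 1000 UMIs, leaving out shallower cells. Intervals and ratios were computed with scipy 1.17.1. Genes with at least 20 UMIs in the pair of libraries entered counts of 2-fold differences. With 1 library per group no test was made. The calculations were tested on simulated data. The simulated counts were independent draws, so this does not check the CPM intervals where many UMIs of a list came from few cells.

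In T-like, CD4 T-like and alveolar macrophage-like cells the 10 mitotic and 6 S-phase members with most UMIs were named in every library, and elsewhere 3 of each list. Of the wider lists the 3 genes with most UMIs were named, and any member past 2-fold against its list would have been named, of which there was none. Alternatives covered filters, clustering, scaling (edgeR 4.0.16 and the size factors of DESeq2), thinning and thresholds.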

Additional observations from a re-analysis of the deposited data

Results flagged for a closer look

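With 1 library per group, a pair of ratios of opposite sign is a pair of library differences, and the difference between them was not tested. In CD4 T-like cells papain against DPBS was -0.066 in WT and 0.71 in KO for mitotic CPM on the log2 scale, a difference of 0.78, and -0.12 and 0.49 for S-phase CPM, a difference of 0.61. In B-like cells KO against WT was 0.45 after DPBS and -0.084 after papain for mitotic CPM, a difference of -0.53, and 0.19 and -0.33 for S-phase CPM, a difference of -0.52. Cenpa led the mitotic sum there, at 117 CPM in WT and 164 in KO after DPBS. Its own ratio was 0.49 after DPBS and 0.21 after papain. Over all cells, 32.1% of Cenpa UMIs lay in cells with at least 3 other mitotic genes. In alveolar macrophage-like cells KO against WT was -0.17 after DPBS and 0.10 after papain for mitotic CPM, a difference of 0.27. In monocyte-like cells, of which 1 in all had 3 mitotic genes after thinning, papain against DPBS was 0.25 in WT and -0.23 in KO for mitotic CPM, a difference of -0.48. In DC-like cells KO against WT was 0.51 after DPBS and -0.34 after papain for S-phase CPM, a difference of -0.85. That class held few cells, 41, 46, 104 and 47, and its clusters were mixed in unlike parts between libraries.

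Barcodes removed as doublets also held cell cycle transcripts. Of all barcodes with 3 mitotic genes after thinning, 17 of 154, 5 of 95, 24 of 157 and 3 of 83 had been removed, or 11.0%, 5.26%, 15.3% and 3.61%, against 6.84%, 4.75%, 6.76% and 4.68% of all barcodes.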

How the results depend on the processing

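Log2 ratios of mitotic CPM are given in the order KO against WT after DPBS, KO against WT after papain, papain against DPBS in WT and papain against DPBS in KO. With cells gated one by one on marker transcripts they were -0.86, -0.62, 0.027 and 0.27 in T-like cells and -0.49, -0.23, -0.46 and -0.19 in alveolar macrophage-like cells. With cell cycle genes kept in the clustering they were 0.19, 0.014, 0.13 and -0.051 in T-like cells and -0.17, -0.0016, -0.42 and -0.26 in alveolar macrophage-like cells. Without integration they were -0.997, -0.78, 0.21 and 0.43 in T-like cells and -0.19, -0.040, -0.44 and -0.29 in alveolar macrophage-like cells. Without doublet removal they were -0.87, -0.52, 0.21 and 0.56 in T-like cells and -0.17, 0.13, -0.61 and -0.31 in alveolar macrophage-like cells. With edgeR TMM factors they were -0.95, -0.46, 0.043 and 0.55 in T-like cells and -0.19, 0.016, -0.63 and -0.42 in alveolar macrophage-like cells. With size factors as in DESeq2 they were -0.95, -0.46, 0.062 and 0.54 in T-like cells and -0.19, 0.018, -0.63 and -0.43 in alveolar macrophage-like cells. As a mean over cells they were -0.19, -0.40, 0.31 and 0.099 in T-like cells and -0.23, 0.10, -0.66 and -0.32 in alveolar macrophage-like cells. Without Stmn1 they were -1.15, -0.66, 0.16 and 0.64 in T-like cells and -0.17, 0.16, -0.74 and -0.42 in alveolar macrophage-like cells. Without the 10 cells of each library with most UMIs of the list, chosen after seeing the data, they were -1.29, -0.82, 0.17 and 0.64 in T-like cells and -0.31, -0.38, -0.96 and -1.03 in alveolar macrophage-like cells. Keeping cell cycle genes turned KO against WT after DPBS around in T-like cells and also in CD4 T-like cells, at 0.094. With that setting 4 of 136, 3 of 92, 3 of 126 and 4 of 75 cells with 3 mitotic genes lay in T-like clusters, and 54, 27, 79 and 48 in unnamed ones. Without thinning, the ratio of shares with 3 mitotic genes in T-like cells, KO against WT after DPBS, was 0.31, and that of S-phase shares in alveolar macrophage-like cells, papain against DPBS in KO, was 0.0041. Thinned to 2000 UMIs, the ratio of S-phase shares in CD4 T-like cells, KO against WT after papain, was 0.0016. The cause was not tested. At 1.5-fold in place of 2-fold, which admits smaller differences, 20 mitotic members were lower in KO T-like cells after papain, against 10.6% of all genes. In T-like cells 1 was higher after papain in WT and 22 in KO, against 11.9% and 6.88% of all genes. In CD8 T-like cells 14 were in WT and 23 in KO, against 7.74% and 7.1%, and in B-like cells 17 were in KO, against 5.26%. In alveolar macrophage-like cells 24 were lower in WT and 6 in KO, against 6.08% and 3.71%. With at least 50 UMIs 3 of 16 tested mitotic members were at least 2-fold higher in B-like cells after papain in KO, against 0.74%, since fewer were tested. Other scalings moved the median of all genes by up to 0.127 (log2), in T-like cells between genotypes after papain. With 1 library per group no library could be left out. No paired analysis was possible because each group has 1 library and the results come from no test.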
